A study of Mus musculus with 4 samples.

Results

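The genes described here encode the secreted and membrane-bound matrix metalloproteinases (Mmp), the ADAMTS proteases (Adamts) and the tissue inhibitors of metalloproteinases (Timp) of the mouse. They were chosen by symbol alone, as every gene of the deposited tables whose symbol is Mmp, Adamts or Timp followed by a number, and they came to 46 of 55416 features: 23 Mmp, 19 Adamts and 4 Timp genes. The data are droplet single-cell RNA sequencing of cells dissociated from the femoral epiphysis, the cartilaginous end of the thigh bone, of wild-type mice. There were 4 libraries, 1 each at days 7, 8, 10 and 12 after birth. All mice carried the same WT genotype and no treatment was named. The number of animals behind each library and the strain were not given in the labels, and the digestion protocol in the labels names bowel cancer tissue at one step, so how these cells were released is known only as far as that text applies.

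Matrix metalloproteinases cut collagens, gelatin, elastin and proteoglycans, and are made as inactive proforms that other proteases open. ADAMTS proteases cut aggrecan and versican, trim the ends of procollagens or cleave von Willebrand factor, depending on the member. TIMP proteins bind and block the active sites of members of these families, and which proteases are blocked depends on the TIMP. In the growing epiphysis, cartilage is hollowed by vessels and replaced by bone, and Mmp13 and Mmp9 are the collagenase and gelatinase best known for that replacement in mice.

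Several of these genes stand side by side: 10 adjacent protein-coding genes on mouse chromosome 9, in the order Mmp13, Mmp12, Mmp1b, Mmp3, Mmp1a, Mmp10, Mmp8, Mmp27, Mmp20 and Mmp7, are all members. The 250 bases before the start of the 4 genes of that run that reached 50 CPM, the unit of level explained below, in some cell type are shown because these neighbouring genes were highest in 3 cell types between them (Mmp13 and Mmp10 in reticular stromal cells, Mmp12 in macrophages and Mmp8 in neutrophils), and the sequence of Mmp14 on chromosome 14 because it was highest in the same cell type as Mmp13 and Mmp10. All lie on the plus strand of RefSeq's GRCm38.p6, at chr9:7272264-7272513 for Mmp13, chr9:7502092-7502341 for Mmp10, chr14:54431348-54431597 for Mmp14, chr9:7344147-7344396 for Mmp12 and chr9:7558179-7558428 for Mmp8. Capitals mark the motifs searched on both strands.
Mmp13: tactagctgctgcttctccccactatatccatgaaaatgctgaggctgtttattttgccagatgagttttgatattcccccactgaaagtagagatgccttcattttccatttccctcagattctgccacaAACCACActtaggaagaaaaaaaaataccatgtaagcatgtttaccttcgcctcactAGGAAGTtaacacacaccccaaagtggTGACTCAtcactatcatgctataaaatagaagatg
Mmp10: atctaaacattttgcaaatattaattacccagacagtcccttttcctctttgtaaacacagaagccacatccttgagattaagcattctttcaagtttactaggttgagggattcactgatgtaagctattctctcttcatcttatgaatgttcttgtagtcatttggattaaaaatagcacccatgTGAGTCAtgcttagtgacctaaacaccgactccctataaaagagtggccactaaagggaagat
Mmp14: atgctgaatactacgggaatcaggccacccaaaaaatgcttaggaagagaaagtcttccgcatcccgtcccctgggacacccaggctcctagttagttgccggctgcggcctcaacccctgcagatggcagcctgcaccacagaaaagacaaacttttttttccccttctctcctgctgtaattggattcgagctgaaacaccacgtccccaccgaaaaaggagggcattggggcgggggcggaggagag
Mmp12: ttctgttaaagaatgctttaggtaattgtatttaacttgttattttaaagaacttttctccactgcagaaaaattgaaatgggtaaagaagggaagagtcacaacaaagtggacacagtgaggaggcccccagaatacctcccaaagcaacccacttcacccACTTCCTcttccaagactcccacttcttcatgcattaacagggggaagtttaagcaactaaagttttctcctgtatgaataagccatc
Mmp8: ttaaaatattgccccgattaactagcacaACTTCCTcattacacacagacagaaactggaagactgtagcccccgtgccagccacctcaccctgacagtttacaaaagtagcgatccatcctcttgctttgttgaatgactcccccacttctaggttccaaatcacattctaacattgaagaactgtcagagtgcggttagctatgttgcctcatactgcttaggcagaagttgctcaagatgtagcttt
The AP-1 motif TGANTCA begins 35 bases before the start of Mmp13 and 63 bases before that of Mmp10. Mmp13 also holds the Runx motif AACCACA 119 bases and the ETS motif AGGAAGT 62 bases before its start, Mmp12 and Mmp8 hold the ETS motif on the minus strand at 88 and 221 bases, and the Mmp14 window holds none of the 3. Over the 32 members with an entry in the RefSeq table, the AP-1 motif was in 7 (21.9%), against 1856 of 27025 promoters of the same length (6.87%). The ETS motif was in 6 (18.8%), against 7.80% of all promoters, and the Runx motif in 2 (6.25%), against 4.46%. These are matches of letters only, and Mmp9 has no entry in that table.

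The libraries at days 7, 8, 10 and 12 held 12886, 12469, 10729 and 18108 barcodes, of which 11309, 11464, 10028 and 16254 passed the filters of at least 500 genes, at least 1000 unique molecular identifiers (UMIs) and at most 15% mitochondrial counts. The median UMIs per kept cell were 3103, 3168.5, 7706.5 and 6563.5, so the later libraries held more UMIs per cell. Each cell was placed in a gate by lists of 8 marker genes, and a gate is a range of a marker score and not a proven cell type, so each is meant as, for example, osteoclast-like. The gates took 95.1%, 85.4%, 70.8% and 77.9% of the cells at days 7, 8, 10 and 12, and 382, 810, 1173 and 1758 cells lay near the cut. Between any pair of libraries 62 to 240 barcodes were shared, and no doublets were removed. The makeup differed greatly between libraries: chondrocytes outside the hypertrophic gate numbered 9075, 6747, 290 and 1633, osteoblasts 26, 60, 97 and 983, and erythroid cells 28, 44, 2056 and 1028. A level is given as CPM, the summed UMIs of a gene over all cells of a gate in a library, divided by all UMIs of those cells and scaled to counts per 1e6, where the gate held at least 30 cells. Because each day is 1 library, age cannot be told apart from the library, and no test between days was made.

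Of the 46 members, 24 reached a mean of 50 CPM in at least 1 gate: 11 Mmp, 10 Adamts and 3 Timp genes. They were spread over 11 gates. Osteoblasts were the highest gate for Mmp16, Mmp23, Adamts18 and Timp1, and mural cells, the smooth muscle cells and pericytes of vessels, for Adamts2, Adamts4, Adamts12 and Timp3. Endothelial cells were highest for Mmp15, Adamts1 and Adamts9, and reticular-stromal-like cells, gated on genes of Cxcl12-rich marrow stroma, for Mmp10, Mmp13 and Mmp14. Fibroblasts were highest for Adamts5 and Adamts19, tendon or ligament cells for Mmp2 and Timp2, and neutrophils for Mmp8 and Mmp25. Mmp9 was highest in osteoclasts, Mmp12 in macrophages, Adamts3 in hypertrophic-zone chondrocytes and Adamts6 in T or NK cells. For several, among them Mmp2, Mmp9, Mmp23, Adamts3, Adamts6, Timp1 and Timp2, the libraries of the highest gate overlapped those of another gate.

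**Figure D1:**
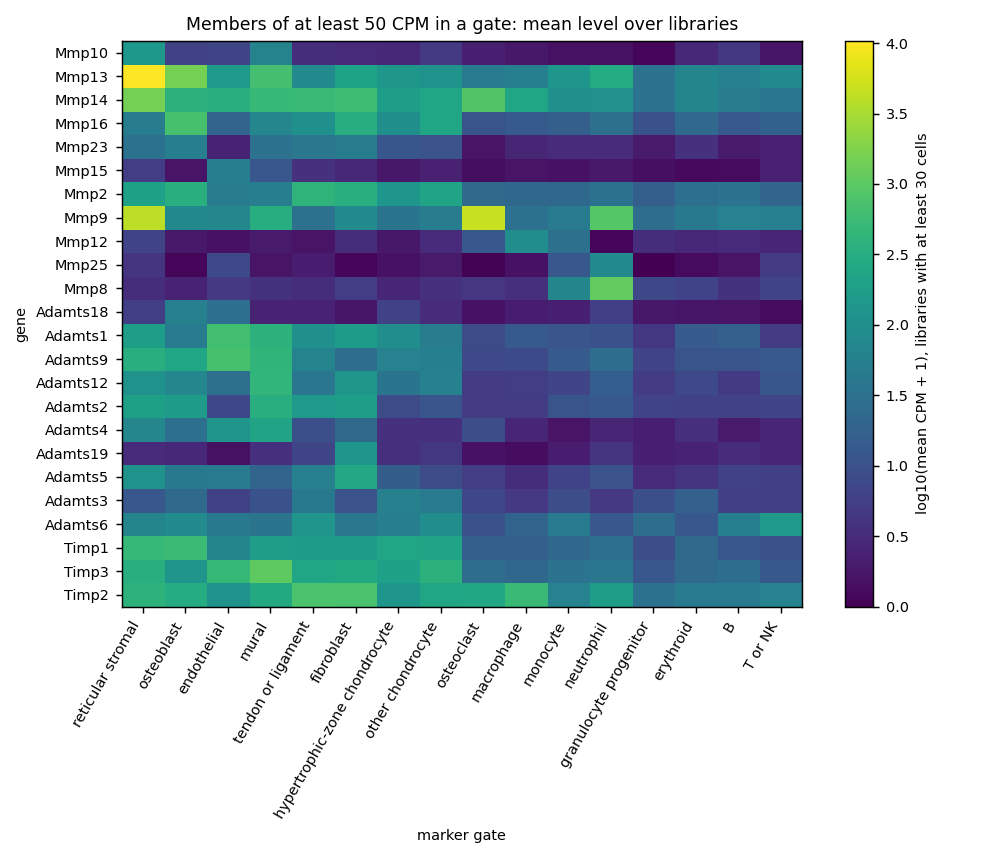
Mean level of the 24 members that reached 50 CPM (rows), by gate (columns), as colour on the scale log10(mean CPM + 1). Mmp13 averaged 10394 CPM in reticular stromal cells, while Timp2 and Timp3 were spread over many gates.

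Mmp13, the main interstitial collagenase of mouse cartilage and bone, had its highest level in the reticular stromal gate. It had 9600, 8567 and 13015 CPM there at days 8, 10 and 12, and 16003 CPM (95% interval of counting error 15402 to 16621) in the 22 reticular stromal cells of day 7, which were too few to enter any test. Osteoblasts, the next gate, had 955, 1319 and 2155 CPM at days 8, 10 and 12. Cells left unassigned by the gates had 5830, 2505, 967 and 1403 CPM at days 7, 8, 10 and 12. Every reticular value was above every osteoblast value. Mural cells had 57.5, 1407, 33.1 and 1189 CPM at days 7, 8, 10 and 12, so that they were high in the libraries of days 8 and 12 and low in the other two. Few cells carried this: 2 of 94 mural cells at day 8 and 6 of 122 at day 12 had at least 5 UMIs and held 95.6% and 93.4% of the Mmp13 UMIs, and without them the levels were 65.9 and 88.9 CPM. B cells, which should lack Mmp13, had 22.6, 36.8 and 109 CPM at days 8, 10 and 12, and erythroid cells had 41.8, 55.5 and 107 CPM, and such levels are read here as background.

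Mmp9, the gelatinase by which osteoclasts and other cells cut denatured collagen, was high in a pair of gates. Osteoclasts had 5741, 5146, 4773 and 3186 CPM at days 7, 8, 10 and 12. Reticular stromal cells had 3405, 3463 and 5616 CPM at days 8, 10 and 12, within the range of the osteoclasts. Neutrophils, which store Mmp9 in granules, had 457 and 1336 CPM at days 10 and 12, while B cells had 82.9, 31.3 and 64.4 CPM at days 8, 10 and 12.

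Mmp14, the membrane-bound protease that opens the proform of Mmp2, was broader. Its level was 1440, 1060 and 1933 CPM in reticular stromal cells at days 8, 10 and 12, and 951, 911, 677 and 811 CPM in osteoclasts at days 7, 8, 10 and 12. Fibroblasts had 556, 579, 425 and 768 CPM, tendon or ligament cells 688, 615, 369 and 390 CPM, and osteoblasts 378, 353 and 398 CPM at days 8, 10 and 12. The reticular values did not overlap those of any of these gates, and the osteoclast values overlapped those of fibroblasts and tendon or ligament cells. Mmp2, the gelatinase of connective tissue, had 505, 441, 437 and 253 CPM in tendon or ligament cells and 304, 280, 408 and 352 CPM in fibroblasts, with overlapping ranges.

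Mmp10, or stromelysin 2, had 207, 156 and 48.9 CPM in reticular stromal cells at days 8, 10 and 12, and 1269 CPM in the 22 cells of day 7. In mural cells it was at 0, 247, 0 and 1.18 CPM, so that a single library carried its mean there. The membrane-bound Mmp16 had 448, 744 and 955 CPM in osteoblasts at days 8, 10 and 12, above the 324, 344, 359 and 263 CPM of fibroblasts in every library. Mmp23 was within the spread between osteoblasts, at 43.0, 61.5 and 46.5 CPM, and fibroblasts, at 50.3, 41.5, 40.7 and 61.2 CPM. Mmp15, another membrane-bound member, stayed at 42.6, 50.6, 55.3 and 59.0 CPM in endothelial cells, where the next gate, mural cells, averaged 11.5 ± 9.40 CPM (SD, n = 4 libraries).

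The members of white blood cells were the neutrophil collagenase Mmp8, the neutrophil membrane protease Mmp25 and the macrophage elastase Mmp12. Neutrophils held enough cells at days 10 and 12 only, and had 985 and 1232 CPM of Mmp8 and 68.2 and 97.0 CPM of Mmp25. Monocytes had 22.4, 116 and 67.8 CPM of Mmp8 at days 8, 10 and 12. Macrophages had 227, 100, 21.5 and 23.1 CPM of Mmp12 at days 7, 8, 10 and 12, so their 2 earlier libraries lay above their 2 later ones.

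**Figure D2:**
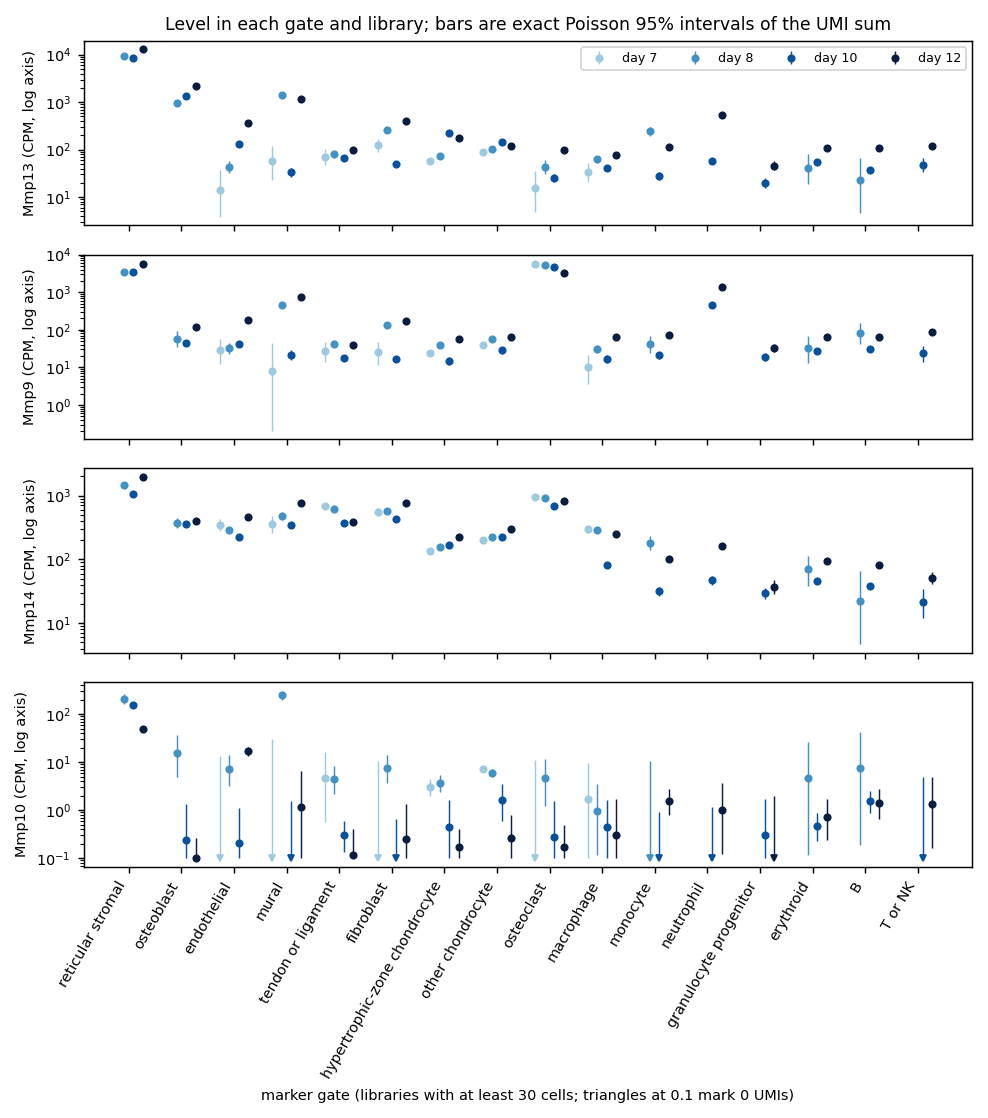
CPM on log axes of Mmp13, Mmp9, Mmp14 and Mmp10 by gate, 1 point per library of day 7, 8, 10 or 12, with bars of exact 95% intervals of counting error and triangles for 0 UMIs. The reticular stromal points of Mmp13 (9600, 8567 and 13015 CPM) lie above all other gates, and those of Mmp9 lie among the osteoclast points.

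Because the reticular stromal gate stood out in these levels, it was compared with fibroblasts and with osteoblasts after its levels had been seen, so the values that led to the comparison are in it. The gate held 63, 133 and 377 cells at days 8, 10 and 12. In edgeR's quasi-likelihood test with the library as a block, 10 of 32 members tested were higher in reticular stromal cells than in fibroblasts, where 12.4% of all tested genes were, and 10 were lower, where 14.9% were. Against osteoblasts, 9 of 29 members were higher, where 10.7% of all genes were, and 8 were lower, where 12.3% were. The median log2 difference over the tested members was -0.28 against fibroblasts (-0.01 over all genes) and -0.00 against osteoblasts (-0.02 over all genes).

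Mmp9 averaged 4161 ± 1260 CPM in reticular stromal cells and 73.01 ± 38.2 CPM in osteoblasts (SD, n = 3 libraries each), a log2 difference of 5.36 (SE 0.24, adjusted p = 2.2e-07 by edgeR). Mmp13 averaged 10394 ± 2328 CPM in reticular stromal cells and 1477 ± 615 CPM in osteoblasts, a log2 difference of 2.34 (SE 0.25, adjusted p = 4.1e-05 by edgeR). Mmp10 (log2 difference 7.12, SE 0.60), Mmp11 (2.57, SE 0.31) and Mmp14 (1.40, SE 0.21) were also higher, each in 3 of 3 libraries. In the other direction, Mmp16 was lower in reticular stromal cells by edgeR (log2 difference -4.48), as were Adamts18 (-4.07) and Mmp2 (-1.23). Against fibroblasts, Mmp10 (log2 difference 6.61), Mmp13 (5.62), Mmp9 (5.51) and Adamts9 (3.47) were higher and Adamts19 (-6.91), Adamts16 (-5.25) and Adamts15 (-3.50) lower. Mmp11 against fibroblasts lost its call without the day 12 library (log2 difference 0.53, adjusted p = 0.39 by edgeR).

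**Figure D3:**
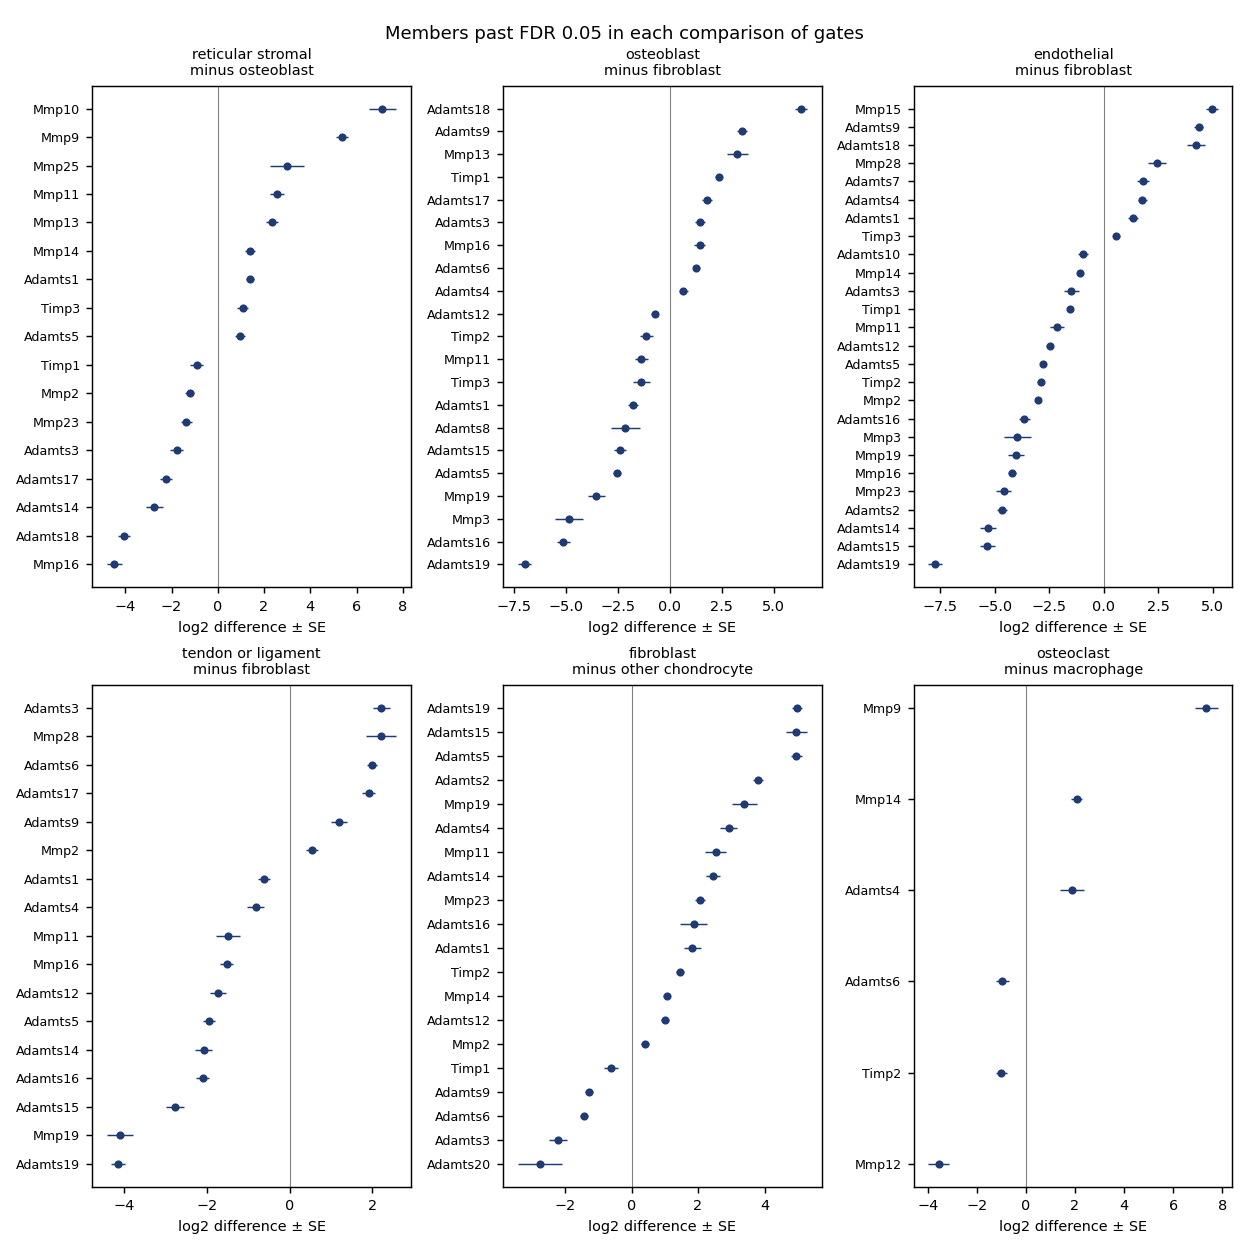
Log2 differences (x axes, with bars of 1 standard error) of the members called by edgeR at an adjusted p under 0.05 in 6 of the 8 comparisons of gates. Positive values are higher in the gate named first, and in reticular stromal cells minus osteoblasts Mmp9 lies at 5.36 and Mmp16 at -4.48.

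The cells behind this level are described here by marker genes. Of these, Cxcl12, Lpl and Il7 are on the list that sets the gate, so high Cxcl12 and Lpl are no check of its identity. Ibsp, Bglap, Acp5 and Ctsk are on the osteoblast and osteoclast lists, whose scores the gate requires to be lower. Spp1 is on no list of the gates. Reticular stromal cells had 1014, 1629 and 2347 CPM of Cxcl12 and 2303, 2743 and 2319 CPM of Lpl at days 8, 10 and 12, while Il7 was at 0, 2 and 16 CPM. They also had the bone matrix genes Spp1, at 3776, 4250 and 11467 CPM, and Ibsp, at 513, 191 and 456 CPM. The osteoclast genes Acp5, at 18, 71 and 30 CPM, and Ctsk, at 89, 211 and 160 CPM, were far below the 2917 to 9474 CPM of Acp5 and 6833 to 11071 CPM of Ctsk in osteoclasts. Per cell and 10000 UMIs, the median cell of the gate had 12.8, 6.99 and 43.8 UMIs of Spp1, 0, 0 and 1.496 of Ibsp, and 0, 1.51 and 1.34 of Ctsk, with Acp5 and Bglap at 0 in all 3 libraries. Mmp13 itself had a median of 30.04, 6.95 and 72.8 UMIs on that scale, so the day 10 level rested on a minority of high cells more than the others. In an unsupervised clustering, 440 of the 595 cells of the gate (73.9%) fell in a cluster whose marker genes were 8 of the osteoblast list and 6 of the reticular list, and whose leading genes included Ibsp, Dmp1, Mmp13 and Cdh2. The marker lists therefore gave these 440 cells both names, and "reticular stromal" stands here for the gate only. By library, that cluster of bone and reticular markers held 35 of 63 gate cells at day 8, 54 of 133 at day 10 and 337 of 377 at day 12. At day 10 another 46 cells of the gate lay in a cluster named neutrophil, so its mix of cells differed from that of the other libraries.

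Mmp13 and Mmp9 were found in the same cells of this gate. Cells with at least 5 UMIs of both genes numbered 44, 97, 75 and 422 at days 7, 8, 10 and 12, or 638 in all. In the reticular stromal gate they were 25 of 63 cells (39.7%) at day 8, 30 of 133 (22.6%) at day 10 and 204 of 377 (54.1%) at day 12. In osteoclasts of day 12 they were 18 of 967 cells (1.9%). Of the 638 cells, 529 (82.9%) fell in the cluster with bone and reticular markers, and 228 were unassigned by the gates, of which 128 had the reticular list as their highest score. Doublets of a pair of cells would also hold both genes, and their part was not tested.

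With each cell thinned to 1000 UMIs, the share of cells with at least 1 Mmp13 UMI was 69.8%, 51.1% and 84.1% in reticular stromal cells at days 8, 10 and 12, against 41.7%, 29.9% and 46.3% in osteoblasts and 6.2%, 5.9% and 12.6% in B cells. The share with Mmp9 was 71.0%, 74.7%, 66.0% and 76.6% in osteoclasts at days 7, 8, 10 and 12, against 6.2%, 4.5% and 9.8% in B cells at days 8, 10 and 12. Both shares were above that of B cells in each library where B cells were measured. Much of the Mmp13 lay outside the named gates: unassigned cells held 65.4%, 63.8%, 39.2% and 21.6% of its UMIs at days 7, 8, 10 and 12, and reticular stromal cells 15.5%, 15.03%, 40.4% and 40.4%. In the cluster with bone and reticular markers, which does not depend on the gates, Mmp13 had 21962, 16677, 6739 and 4877 CPM at days 7, 8, 10 and 12, over 90, 162, 154 and 1473 cells.

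Osteoclasts and macrophages, which share a myeloid origin, were compared in all 4 libraries. By edgeR 3 of 19 members tested were higher in osteoclasts, where 18.9% of all genes were, and 3 were lower, where 20.5% were, so the share of members was near that of all genes. Mmp9 averaged 4711 ± 1092 CPM in osteoclasts and 30.8 ± 24.8 CPM in macrophages (SD, n = 4 libraries), a log2 difference of 7.35 (SE 0.47, adjusted p = 8.1e-07 by edgeR), higher in 4 of 4 libraries. Mmp14 (log2 difference 2.07) and the aggrecanase Adamts4 (1.86) were also higher, although Adamts4 was at only 8.18 CPM in osteoclasts and lost its call without the library block, with thinned cells and with classes from clusters (adjusted p = 0.053, 0.082 and 0.050 by edgeR). Mmp12 (-3.56), Timp2 (-1.01) and Adamts6 (-0.96) were lower, the last losing its call without the day 10 library (adjusted p = 0.074 by edgeR) or the day 12 library (adjusted p = 0.21). Mmp13 did not pass the test, at 45.6 CPM in osteoclasts and 53.9 CPM in macrophages.

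The hypertrophic gate took chondrocytes with at least 3 of the 6 genes Col10a1, Ihh, Panx3, Pth1r, Mef2c and Runx3, and was compared with the other chondrocytes. By edgeR 19 of 33 members tested were called, where 38.9% of all genes were: 14 were lower in hypertrophic-zone chondrocytes, where 18.4% of all genes were, and 5 were higher, where 20.5% were. The count of 19 fell to 4 without the library block and to 2 when classes came from clusters. The gate and the clusters divided these cells differently: of the hypertrophic-zone cells, 1152 of 1183 at day 7 and 950 of 1017 at day 8 lay in the 4 clusters named other chondrocyte, while at day 12 the cluster named hypertrophic held 1204 of 1637. The median log2 difference was -0.39 over the tested members and -0.01 over all genes. All 4 hemoglobin genes, listed as a check of free RNA, were also called lower by edgeR (median log2 difference -1.33). So were 3 of 5 neutrophil granule genes, and the part of free RNA in the calls of members was not tested. Hypertrophic-zone cells held more UMIs, with medians of 7072, 6390, 22630 and 15625 against 2933, 3062, 11229 and 6038 in other chondrocytes, and the part of depth in these calls was not tested beyond the gate on thinned cells given below.

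Adamts1, a versican- and aggrecan-cutting protease, was higher in the hypertrophic gate at 90.5 CPM against 47.1 CPM (means over 4 libraries), a log2 difference of 1.22 (SE 0.20, adjusted p = 0.0018 by edgeR). It lost its call without the library block and with classes from clusters (adjusted p = 0.35 and 0.051 by edgeR). Only 2 of the 19 called members kept their call in every setting. Adamts18 (log2 difference 1.40), Adamts5 (1.03), Adamts14 (0.82) and the procollagen N-proteinase Adamts3 (0.46) were also called higher, but Adamts18 and Adamts5 were not called when the gate was set on cells thinned to 1000 UMIs (log2 differences 0.67 and 0.11). Adamts3 had 39.4, 37.1, 81.1 and 62.6 CPM in hypertrophic-zone cells and 40.3, 29.4, 45.7 and 52.6 CPM in other chondrocytes, so its ranges overlapped, and it lost its call without the day 8 or the day 12 library (adjusted p = 0.083 and 0.058 by edgeR). Adamts14 lost its call without day 12 (adjusted p = 0.052 by edgeR). Members called lower included Mmp3 (log2 difference -2.24), Adamts16 (-2.03), Adamts10 (-1.10), Mmp16 (-1.06), Timp3 (-0.82), Timp2 (-0.69) and Mmp2 (-0.64). Timp3 lost its call with the gate set on thinned cells (log2 difference -0.44, adjusted p = 0.078 by edgeR). With classes from clusters, the calls of Adamts10, Timp3, Timp2 and Mmp2 were lost (adjusted p = 0.31, 0.75, 0.21 and 0.41 by edgeR).

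Mmp13, known in mice as a product of late hypertrophic cells, did not pass this test, and the gate and the clusters gave it different levels. Hypertrophic-zone chondrocytes had 56.9, 75.0, 227 and 173 CPM at days 7, 8, 10 and 12, higher than other chondrocytes in 2 of 4 libraries, and the log2 difference was 0.16 (SE 0.20, adjusted p = 0.55 by edgeR). The direction was not stable: the log2 difference was -0.019 without day 10 and -1.46 with the gate set on thinned cells (adjusted p = 0.010 by edgeR). In chondrocytes with all 6 hypertrophic genes Mmp13 had 28.3, 22.2, 11.02 and 150.5 CPM at days 7, 8, 10 and 12, below the levels of cells with none of them at days 7, 8 and 10 (75.0, 105 and 54.5 CPM) and above at day 12 (109 CPM). At days 7, 8 and 10 the cells with all 6 lay below erythroid cells, whose level is read here as background (50.1 CPM in 28 cells at day 7). Cells with none lay near that background at days 10 and 12. The part of background in this order was not tested. In the cluster named hypertrophic, by contrast, Mmp13 had 810, 1127 and 324 CPM at days 8, 10 and 12, over 40, 152 and 1460 cells, against 72.2, 26.8 and 452 CPM over the 5838, 35 and 112 cells of the clusters named other chondrocyte. With classes from these clusters the log2 difference was 2.78, which did not pass the test either (adjusted p = 0.13 by edgeR). In the hypertrophic cluster, 29, 116 and 1204 cells of the hypertrophic gate had 302, 283 and 114 CPM at days 8, 10 and 12. Its 6, 23 and 219 cells of the other chondrocyte gate had 460, 123 and 106 CPM. Both lay below the cluster level, so the few remaining cells, outside both gates, carried higher levels.

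Fibroblasts differed from chondrocytes outside the hypertrophic gate in 20 of 30 members tested by edgeR, where 38.4% of all genes did: 15 were higher, where 18.4% of all genes were, and 5 lower, where 20% were. The median log2 difference was 0.73 over the tested members and -0.04 over all genes. Adamts5, the main aggrecanase of mouse cartilage, had 215, 213, 261 and 355 CPM in fibroblasts at days 7, 8, 10 and 12 and averaged 7.24 CPM in other chondrocytes, a log2 difference of 4.94 (SE 0.17, adjusted p = 3.5e-07 by edgeR). Adamts19 (log2 difference 4.98), Adamts15 (4.95), the procollagen N-proteinase Adamts2 (3.80), Mmp19 (3.39), Timp2 (1.45), Mmp14 (1.06) and Adamts12 (1.01) were also higher. Adamts9 (-1.27), Adamts6 (-1.43) and Adamts3 (-2.22) were lower. With classes from clusters the log2 difference of Adamts6 was 0.33, and by edgeR the calls of Adamts9 (-0.17, adjusted p = 0.70) and Mmp19 (1.98, adjusted p = 0.054) were lost. Timp1 was called lower (-0.61), but the call was lost without day 7, day 8 or day 10 (adjusted p = 0.13, 0.13 and 0.084 by edgeR).

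Fibroblasts were also the cells against which endothelial, tendon or ligament, and osteoblast gates were set, so these comparisons share the fibroblast values. Endothelial cells differed by edgeR in 26 of 31 members, where 46.2% of all genes did: 8 were higher, where 19.7% of all genes were, and 18 lower, where 26.5% were. Adamts9, a versican-cutting protease, had 838, 964, 574 and 437 CPM in endothelial cells at days 7, 8, 10 and 12 and averaged 25.9 CPM in fibroblasts, a log2 difference of 4.36 (SE 0.21). Adamts1 had 1054, 937, 310 and 199 CPM in endothelial cells and 173, 251, 134 and 111 CPM in fibroblasts, a log2 difference of 1.34 (SE 0.24), higher in 4 of 4 libraries. Mmp15 (log2 difference 4.97) and Adamts4 (1.78) were also higher in endothelial cells, and Adamts19 (-7.75), Adamts2 (-4.66), Mmp16 (-4.20), Mmp2 (-3.01), Timp2 (-2.90) and Adamts12 (-2.48) lower. Timp3 was called higher (0.58), but lost its call without day 10 (adjusted p = 0.062 by edgeR).

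Tendon or ligament cells differed from fibroblasts by edgeR in 17 of 28 members, where 27.2% of all genes did, 6 higher (14.9% of all genes) and 11 lower (12.3% of all genes). Adamts6 had 122, 97.8, 123 and 152 CPM in tendon or ligament cells and averaged 39.0 CPM in fibroblasts, a log2 difference of 1.99 (SE 0.11, adjusted p = 1.3e-06 by edgeR). Adamts19 had 6.88, 2.23, 9.33 and 4.85 CPM in tendon or ligament cells, against 97.7, 94.4, 222 and 104 CPM in fibroblasts, a log2 difference of -4.14 (SE 0.17). Adamts5 (-1.95), Adamts12 (-1.73) and Mmp16 (-1.52) were also lower in tendon or ligament cells, and Adamts3 (2.22) and Adamts17 (1.91) higher.

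Osteoblasts differed from fibroblasts by edgeR in 21 of 30 members over 3 libraries, where 41.2% of all genes did, 9 higher (19.5% of all genes) and 12 lower (21.7% of all genes). Adamts18 averaged 54.9 CPM in osteoblasts and 1.02 CPM in fibroblasts, a log2 difference of 6.31 (SE 0.30, adjusted p = 4.5e-07 by edgeR). Adamts9 (log2 difference 3.48), Mmp13 (3.25), Timp1 (2.35) and Mmp16 (1.44) were also higher, and Adamts19 (-6.995), Adamts16 (-5.13), Mmp19 (-3.54) and Adamts5 (-2.53) lower. With classes taken from clusters, in which many reticular stromal cells count as osteoblasts, the log2 difference of Adamts1 was 0.74 in place of -1.77 and that of Mmp11 was 1.07 in place of -1.36, and the call of Mmp11 was also lost without day 10 (adjusted p = 0.19 by edgeR). With clusters the calls of Adamts5 (log2 difference -0.16, adjusted p = 0.37 by edgeR) and Mmp16 (1.08, adjusted p = 0.058) were lost too.

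Mural cells had the highest levels of several ADAMTS genes, with no test made of this gate. Adamts12 had 320, 376, 557 and 499 CPM in mural cells at days 7, 8, 10 and 12, against 97.7, 96.0, 153 and 185 CPM in fibroblasts, and Adamts2 had 255, 259, 387 and 407 CPM, against 137, 91.4, 191 and 257 CPM in fibroblasts. In each library the mural value was higher than the fibroblast value. The next gate of Adamts2 by mean was reticular stromal, at 188 ± 98.6 CPM (SD, n = 3 libraries). Adamts4 had 288, 438, 98.4 and 61.5 CPM in mural cells and 177, 189, 59.6 and 61.6 CPM in endothelial cells, so the gates met at day 12. Summed over all 19 genes, Adamts levels were 2375, 2357, 1721 and 1606 CPM in mural cells, 2257, 2231, 1207 and 958 CPM in endothelial cells and 66.8, 58.1, 75.6 and 75.4 CPM in osteoclasts.

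The 3 inhibitors that reached 50 CPM were each present in several gates. Timp3, which binds to the matrix, had 887, 950, 1378 and 1022 CPM in mural cells, 327, 485, 677 and 429 CPM in endothelial cells and 452, 379, 329 and 340 CPM in other chondrocytes at days 7, 8, 10 and 12. Timp2, which also takes part in the opening of Mmp2 by Mmp14, had 819, 807, 667 and 702 CPM in tendon or ligament cells, 626, 540, 834 and 903 CPM in fibroblasts and 465, 360, 598 and 579 CPM in macrophages. Its tendon and fibroblast ranges overlapped. Timp1, a secreted inhibitor induced by many signals, had 703, 420 and 523 CPM in osteoblasts and 922, 315 and 252 CPM in reticular stromal cells at days 8, 10 and 12, which overlapped. Summed over the 4 Timp genes, reticular stromal cells had 1829, 994 and 809 CPM at days 8, 10 and 12, beside 14902, 13609 and 21009 CPM summed over the Mmp genes. The labels and headers do not say which strand was counted, and Timp1, Timp3 and Timp4 overlap Syn1, Syn3 and Syn2 on the opposite strand and Mmp12 overlaps Mmp1b, so reads of these pairs may not be told apart.

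Genes that act with these families were counted from lists of partners. Of 8 tested ADAM sheddases, the membrane proteases that release cell surface proteins, 7 were lower and 0 higher in osteoclasts than in macrophages by edgeR, where 20.5% and 18.9% of all genes were, with a median log2 difference of -1.67 (0.01 over all genes). Adam17 averaged 52.4 ± 22.7 CPM in osteoclasts and 177 ± 33.6 CPM in macrophages (SD, n = 4 libraries), and Adam19 averaged 2.46 and 109 CPM. Of 13 tested activators, plasminogen system genes and other inhibitors 3 were higher and 3 lower, a share near that of all genes. Furin, which opens proforms of membrane-bound Mmps, was higher (log2 difference 1.77) and the clearance receptor Lrp1 lower (-2.49). In reticular stromal cells against fibroblasts 3 of 16 such genes were higher and 4 lower (12.4% and 14.9% of all genes), and the protease inhibitor Serpine2 averaged 2286 ± 1059 CPM in reticular stromal cells and 218 ± 29.2 CPM in fibroblasts (SD, n = 3 libraries) (log2 difference 3.11). Of 13 matrix substrates, 2 were higher and 8 lower in reticular stromal cells than in fibroblasts, and 7 were higher and 6 lower in fibroblasts than in other chondrocytes (18.4% and 20% of all genes). All 5 tested ADAMTS-like genes, which lack a protease domain, were lower in endothelial cells than in fibroblasts, where 26.5% of all genes were.

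Day 12 was set against day 7 within each gate of at least 30 cells in both libraries, as values of 1 library each, and a member was counted when its CPM lay at least 2-fold apart and both sums together held at least 20 UMIs. In hypertrophic-zone chondrocytes 11 of 34 members were higher and 4 lower, where 21.9% and 13.3% of all genes were. In other chondrocytes 9 of 36 were higher and 4 lower (18.4% and 17.5% of all genes). In both chondrocyte gates the 2 days hold cells of different clusters: the cluster named hypertrophic had 10 cells at day 7 and 1460 at day 12, and the 4 clusters named other chondrocyte had 7879 at day 7 and 112 at day 12. In tendon or ligament cells 3 of 31 were higher and 11 lower (6.49% and 22.0% of all genes), and in fibroblasts 7 of 27 were higher and 0 lower (14.3% and 8.96% of all genes). Mural cells had 7 of 22 higher and 4 lower (17.7% and 9.44%), endothelial cells 9 of 26 higher and 4 lower (18.2% and 10.3%), osteoclasts 4 of 25 higher and 7 lower (12.3% and 17.6%) and macrophages 5 of 15 higher and 2 lower (17.2% and 6.59%). The share of members higher at day 12 was above that of all genes in 8 of 8 gates, and the share lower was above it in 5 of 8, but the gates come from the same 2 libraries. Over all kept cells 17 of 42 members were higher and 6 lower (26.2% and 22.4% of all genes).

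Timp1 lay lower at day 12 in 5 gates. It had 392, 267, 123 and 156 CPM in hypertrophic-zone chondrocytes at days 7, 8, 10 and 12, 353, 310, 133 and 95.8 CPM in other chondrocytes, and 243, 235, 77.5 and 89.2 CPM in tendon or ligament cells. In all 3 gates both later libraries lay below both earlier ones. The ratio of day 12 to day 7 in other chondrocytes had a counting interval of 0.255 to 0.289, which does not cover the change of clusters between these days given above. Endothelial cells at day 12 and day 7 had 51.6 and 110 CPM, and mural cells 60.3 and 123 CPM, with a higher value of 457 CPM at day 8. Adamts1 showed the same order in other chondrocytes, at 75.6, 72.5 and 20.3 CPM at days 7, 8 and 10 and 3.76-fold below day 7 at day 12, and in endothelial cells at the values given above, where day 12 was 5.32-fold below day 7 (ratio interval 0.165 to 0.215). The summed CPM of 14 genes known to respond to tissue dissociation, such as heat shock and immediate early genes, also differed between libraries, at 14234, 14618, 8614 and 6583 CPM in other chondrocytes and 11915, 8394, 5946 and 2681 CPM in mural cells at days 7, 8, 10 and 12. In endothelial cells it was 5264, 7557, 5884 and 2521 CPM, with day 10 above day 7. In tendon or ligament cells it was 9684, 13395, 6414 and 3240 CPM. Its part in the levels of Timp1 and Adamts1 was not tested.

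**Figure D4:**
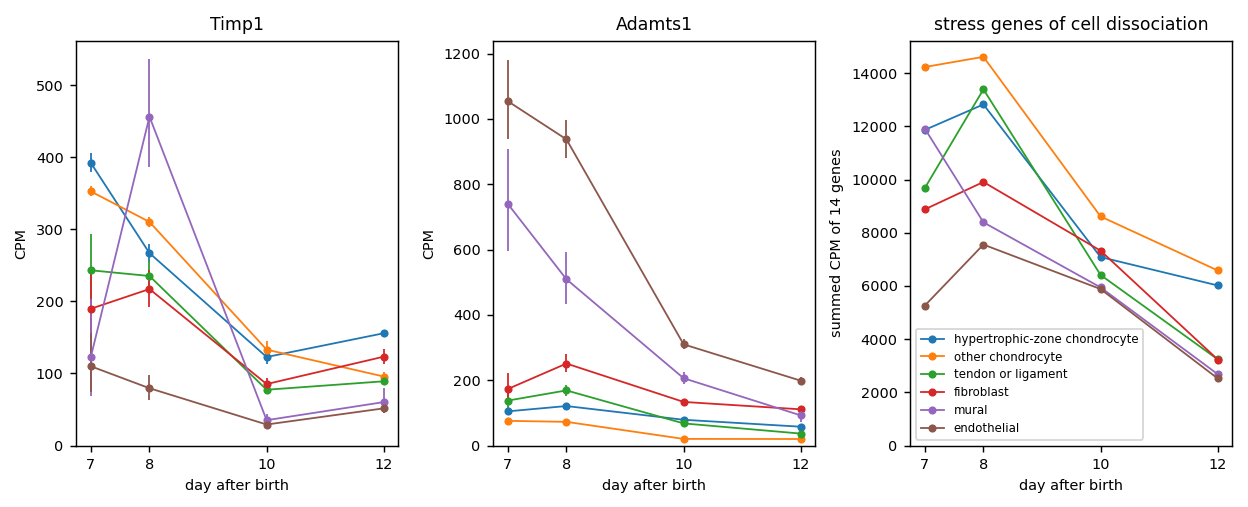
CPM of Timp1 and Adamts1 and the summed CPM of 14 dissociation stress genes by day after birth in 6 gates, 1 point per library, with bars of exact 95% intervals of counting error in the first 2 panels. Timp1 in other chondrocytes lies at 353, 310, 133 and 95.8 CPM at days 7, 8, 10 and 12, and the stress genes there at 14234, 14618, 8614 and 6583 CPM.

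Mmp13 lay higher at day 12 in 6 gates, among them endothelial cells, at 14.2, 43.4, 134 and 370 CPM, and fibroblasts, at 123, 264, 50.8 and 408 CPM at days 7, 8, 10 and 12. Few cells carried these values at day 12: 15 of 461 endothelial cells and 3 of 423 fibroblasts with at least 5 UMIs held 84.2% and 84.8% of the UMIs, and without them the levels were 61.4 and 63.04 CPM. Osteoclasts and macrophages, which are also among the 6 gates, had 98.7 and 78.0 CPM at day 12, below the 109 CPM of B cells. Over all kept cells Mmp13 had 402, 475, 458 and 998 CPM, and Mmp9 had 177, 264, 307 and 652 CPM. The cluster with bone and reticular markers went the other way, with 90 cells at day 7 and 1473 at day 12. Its Mmp13 was 21962 CPM at day 7 and 4877 CPM at day 12, and its Mmp9 6980 and 1367 CPM. Of its cells, 22 at day 7 and 900 at day 12 lay in the osteoblast gate, and the part of this mix was not tested. B cells had 22.6 CPM of Mmp13 at day 8 and 109 CPM at day 12, so the level in cells that should lack it was higher in the day 12 library as well, and the part of free RNA in these ratios was not tested. Mmp12 in macrophages was 9.77-fold lower at day 12 than at day 7 (ratio interval 0.0759 to 0.136). Adamts2 in tendon or ligament cells had 87.2, 111, 178 and 216 CPM, its highest value at day 12. Fewer cells of a type and less RNA per cell cannot be told apart in the values over all kept cells.

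The other 22 members stayed under a mean of 50 CPM in every gate. Mmp1a had 0 UMIs, Mmp7 had 4 and Mmp21 had 7 over all 49055 kept cells, and they are too few to place. Of the rest, the nearest to the threshold were Adamts14, at 47.7 ± 20.1 CPM in T or NK cells (SD, n = 2 libraries), and Adamts17, at 44.6 ± 1.61 CPM in osteoblasts (n = 3), while the nearest above it were Mmp23, at 50.3 ± 9.83 CPM, and Mmp15, at 51.9 ± 7.09 CPM. Mmp11 averaged 41.0 CPM in mural cells and 29.1 CPM in reticular stromal cells, and Mmp3, the first stromelysin, 10.4 CPM in other chondrocytes. Timp4 reached 3.43 CPM in mural cells, and Adamts13, which cleaves von Willebrand factor, 1.77 ± 2.50 CPM in erythroid cells (n = 3).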

How the data were processed

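Droplet single-cell RNA sequencing covered 4 libraries on the MobiNova-100 platform, per the labels. The authors deposited, for each library, a matrix of UMI counts per gene and cell, and the values are whole numbers with no normalization. The build GRCm39 is named in the submitters' processing notes, while no label or header names the aligner, the counter or the strand. Library totals were 44218720, 46534365, 132282322 and 169323978 UMIs at days 7, 8, 10 and 12.

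A cell was kept if it reached 500 genes and 1000 UMIs and its mitochondrial share did not pass 15%. No doublet caller was run. Each gate has 8 marker genes, a marker scaled to the 95th percentile of its nonzero values, and a cell was assigned when at least 3 markers were detected and its score was at least 1.5 times the next. The rule for scoring was set after the matrices were seen, and the members, markers and lists were chosen with earlier results of these data known. UMI counts were summed per library and gate, and gates of at least 30 cells in at least 3 libraries were compared with edgeR 4.0.16 (R 4.3.3; TMM scaling, its filter on low counts, library as a block, quasi-likelihood test, Benjamini-Hochberg over all tested genes, threshold 0.05). Libraries serve as replicates across age, and the same libraries give both gates, so the block pairs them by origin. The p-values therefore set a gate difference against how much that difference varied from library to library. Day 12 was set against day 7 with 1 UMI added to each sum and exact 95% intervals, which cover counting error only. Members named in the text reached a mean of 50 CPM in a gate or were called in a comparison described. On simulated data with known changes, the test recovered 33.7% to 67.0% of genes changed 2-fold and 90.6% to 100% of those changed 4-fold, over the 8 comparisons. It made 2 to 8 false calls per comparison. The changed genes were drawn only from those with high expected counts, and all genes were given the same variation between sums. These shares therefore do not carry over to members with few UMIs or with a larger spread. Alternatives were DESeq2 1.42.0, no filter, no block, leaving out each library, a stricter gate, a gate on cells thinned to 1000 UMIs, Leiden clusters (Scanpy 1.11.5) in place of gates, and leaving out shared barcodes, the last chosen after seeing the data, as were the 2 comparisons of the reticular stromal gate.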

Additional observations from a re-analysis of the deposited data

Results flagged for a closer look

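Of 77 pairs of a member and a gate with 4 libraries, 4 had 1 library apart from the other 3, where the gap of that library to its nearest neighbour took more of the whole range than Dixon's 95% critical value. Chance gives about 1 such flag in 20 groups, and the cause of none was tested. Adamts19 in fibroblasts had 222 CPM at day 10, where the median of the other libraries was 97.7 CPM. Adamts9 in other chondrocytes had 70.0 CPM at day 12, where the median of the others was 47.9 CPM. Mmp10 in mural cells had 247 CPM at day 8, where the median of the others was 0 CPM. Mmp9 in endothelial cells had 184 CPM at day 12, where the median of the others was 32.5 CPM.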

How the results depend on the processing

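Over the 8 comparisons of gates, 1241 results stayed on the same side of the threshold and in the same direction under the alternatives run, 125 lost their call and 12 reversed. Of the day ratios 201 stayed, 26 moved and 8 reversed. The libraries are the days, each comparison of gates has its library as the replicate block, and no paired analysis was possible between days because each day is 1 library. Without the replicate block, 4 members were called between hypertrophic-zone and other chondrocytes in place of 19, and 2 with classes from Leiden clusters, while the pairing by library left the other counts within 1.5 times. In that comparison the log2 difference of Mmp13 ranged from -0.019 to 0.37 on leaving out 1 library (-0.019 without day 10, -0.0036 without day 12) and was -1.46 with thinned cells, and that of Adamts6 was 0.29 with clusters. With clusters, osteoblasts against fibroblasts gave -0.041 for Adamts3, -0.36 for Adamts17, 1.07 for Mmp11, 0.086 for Timp3, -0.22 for Adamts6 and 0.74 for Adamts1, and fibroblasts against other chondrocytes gave 0.33 for Adamts6 and 0.17 for Timp1. Members 2-fold apart between days 12 and 7 came to 9 with day 10 as the later library and 5 with thinned cells in hypertrophic-zone chondrocytes (15 as reported), 5 with day 8 as the baseline and 25 with no UMI minimum in tendon or ligament cells (14), 19 with no minimum and 2 with a stricter gate in fibroblasts (7), 20 with no minimum in mural cells (11), 21 in endothelial cells (13), 28 in osteoclasts (11), and 11 with day 8 as the baseline and 16 with no minimum in macrophages (7). With day 10 as the later library, the log2 ratio was -0.67 for Mmp9 in hypertrophic-zone chondrocytes, -2.36 for Mmp12 in other chondrocytes (-0.42 with clusters), -1.30 for Mmp13 and -0.73 for Mmp9 in fibroblasts, and -0.97 for Mmp13 in mural cells. With day 8 as the baseline it was -0.24 for Mmp13 in mural cells and 1.04 for Mmp12 in osteoclasts. With clusters, Mmp9 was highest in the osteoblast clusters, at 4021 CPM, Mmp12 in granulocyte progenitors, at 86.6 CPM, and Adamts18 in endothelial cells, at 28.1 CPM. No cluster was named reticular stromal or tendon or ligament. The highest class of Mmp10, Mmp13, Mmp14, Mmp2 and Timp2 therefore could not stay the same with clusters. With thinned cells Mmp10 was highest in endothelial cells, at 10.3 CPM. Leaving out a library or a stricter gate moved the highest gate of Mmp23, Timp1, Timp2 and Adamts6. The thinned gate for osteoblasts against fibroblasts, the clusters for tendon or ligament cells, and the strict, thinned and cluster settings for reticular stromal cells left fewer than 3 libraries and were not run. The cause of these changes was not tested, and depth limits the members under 20 UMIs.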
